A study of Homo sapiens with 8 samples.

Results

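The zinc finger genes of human chromosome 19 were followed in 2 acute myeloid leukaemia cell lines treated with chlorprothixene, an antipsychotic drug of the thioxanthene class. The genes were taken by name and place: every gene named ZNF with a number and at most 1 letter after it, listed on chromosome 19. There were 261 of them among 55765 gene names, from 267 table rows, because 6 names had 2 rows that were summed. NB4, from an acute promyelocytic leukaemia with the PML-RARA fusion, was compared with Kasumi-1, derived from a myeloblastic leukaemia that carries RUNX1-RUNX1T1. Each line was sequenced once untreated and once at each of 3 times, 6, 12 and 24 h, in 40 uM chlorprothixene. The 8 libraries came from total RNA of cells grown in medium with 10% serum; the labels give no vehicle and no second culture of any condition, and the untreated cells carry no time of their own, so drug and time in culture cannot be told apart. Levels are TPM, which correct for transcript length and have the same sum in every library.

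Most zinc finger genes of this kind encode DNA-binding repressors with an array of C2H2 fingers that reads the sequence and, in many of them, a KRAB domain that recruits the corepressor TRIM28, the histone methyltransferase SETDB1 and heterochromatin proteins. They multiplied by tandem duplication, which left dense clusters on chromosome 19, and many bind the transposable elements that spread while they arose. The finger arrays of neighbours are often nearly alike, so reads from 1 copy can be assigned to another, and the genes often overlap. Of the 261 genes, 108 overlapped another listed gene on the same strand, 136 overlapped one on the opposite strand and 76 overlapped none. A strand-specific preparation is not given in the sources used here, so reads of opposite-strand partners cannot be told apart. In RNA from whole cultures, fewer cells expressing a gene and less RNA per cell cannot be told apart either.

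Gene types matched by identifier in GENCODE 29 gave 245 protein-coding genes, 1 long noncoding RNA gene and 13 pseudogenes of 3 classes, and 2 genes had no match. A median over the genes at 1 TPM or more put 1 TPM at a mean read coverage of 1.32 to 1.86 bases per position across libraries, so levels near 0 rest on few reads. An exact 0 can also be a failed estimate: EHMT2, a widely used histone methyltransferase gene on another chromosome, was listed at or near 0 in all 8 libraries. Myeloid genes MPO, CD33, SPI1 and CEBPA were well above 1 TPM in both lines, CD34, KIT and ELANE reached 18.3 TPM or more in every Kasumi-1 library and stayed under 1 TPM in NB4, and HBB, HBA1, MS4A1 and KRT19 were listed at 0. EPCAM, an epithelial marker, was listed at 15.7 to 29.7 TPM in both lines, and CD3E and KRT18 stayed under 1 TPM. Mitochondrial genes took 5.04% to 6.71% of TPM in NB4 and 7.94% to 17.1% in Kasumi-1, highest in the Kasumi-1 library at 24 h. The part of these differences in the results below was not tested, except that the line difference was also run on TPM rescaled without mitochondrial and the most abundant genes.

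The 261 genes together made up 0.148% to 0.182% of all TPM. Their sum was 1733, 1591, 1491 and 1480 TPM in NB4 (untreated, 6, 12 and 24 h; the same order is used throughout) and 1816, 1822, 1728 and 1772 TPM in Kasumi-1. Every Kasumi-1 library but the one at 12 h lay above the untreated NB4 library, which had the highest NB4 sum. Between 154 and 161 of the genes reached 1 TPM in an NB4 library and between 170 and 175 in a Kasumi-1 library. Requiring an average level of 1 TPM or more in the 8 libraries admitted 188 genes to the tests and left out 73, of which 26 were listed at 0 in all 8. The filter itself can favour a difference: 20 of the 188 were under 1 TPM in every Kasumi-1 library and 28 were under 1 TPM in every NB4 library. The 188 genes had a median level of 4.82 TPM against 18.9 TPM over the 14650 genes tested; 149 of them lay under 10 TPM and 17 at 20 TPM or more.

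Ordered by start, with a gap of over 1 Mb opening a new group, 249 of the 261 genes fell into 9 clusters of at least 5 genes (hg19 coordinates of the deposited tables). Clusters 1 to 4 lay on the short arm: cluster 1 held 5 genes from 2819872 to 2944969, cluster 2 held 16 from 7069455 to 9903856, and cluster 3 held 27 from 11594242 to 12750912. Cluster 4, nearest the centromere, held 41 genes from 19779605 to 24312654. On the long arm, cluster 5 held 6 genes from 35033367 to 35454953, cluster 6 held 26 from 36673188 to 38307940, and cluster 7 held 25 from 44029649 to 45579846. Cluster 8 held 43 genes from 52074551 to 54083523 and cluster 9, towards the end of the chromosome, 60 genes from 55987699 to 58992597.

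**Figure D1:**
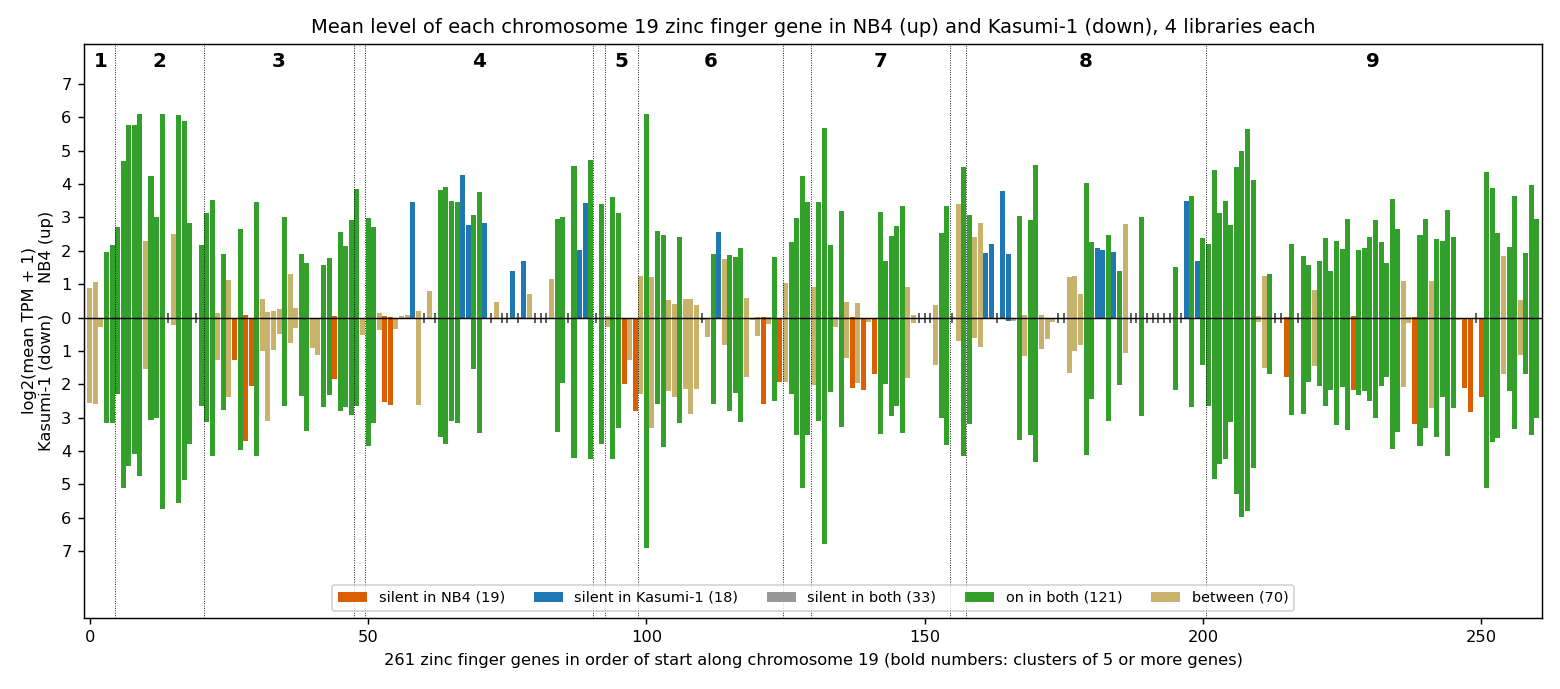
Mean level of each of the 261 genes as log2(mean TPM + 1), NB4 upward and Kasumi-1 downward (4 libraries each), in order of start with dotted lines between clusters; ticks on the zero line mark genes silent in both lines. Genes silent in Kasumi-1 sit in clusters 4 and 8 with 1 exception, and genes silent in NB4 are spread over clusters 3 to 7 and 9.

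Some of these genes were on in 1 line and silent in the other. A gene was called silent in a line when all 4 of its libraries were under 0.1 TPM and on when all 4 were at 1 TPM or more. By this rule 121 genes were on in both lines, 33 silent in both, 19 silent in NB4 and on in Kasumi-1, 18 silent in Kasumi-1 and on in NB4, and 70 between these classes. Of the 70, 19 were silent in NB4 without reaching 1 TPM in every Kasumi-1 library, and 6 were the reverse.

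The 19 genes silent in NB4 were 11.7% of the 163 genes on in Kasumi-1, against 3.74% over all genes on in Kasumi-1, 3.57% over protein-coding genes and 6.60% (14 of 212) of the zinc finger genes on other chromosomes. The 18 genes silent in Kasumi-1 were 12.3% of the 146 genes on in NB4, against 1.54% over all genes, 1.23% over protein-coding genes and 1.03% (2 of 195) of the zinc finger genes elsewhere. Other genes of chromosome 19 gave 3.08% and 0.822%. These shares are descriptions of 2 cell lines with no test. Many of these zeros were exact: 10 of the 19 were listed at 0 in all 4 NB4 libraries and 12 of the 18 in all 4 Kasumi-1 libraries. With the same bounds on FPKM the counts of 19 and 18 became 11 and 12.

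The place of the silent genes differed between the lines. Of the 18 genes silent in Kasumi-1, 17 lay in clusters 4 (8 genes) and 8 (9 genes), which hold 84 of the 261 genes, and the other, ZNF585A, lay in cluster 6. Clusters 4 and 8 held 2 of the 19 genes silent in NB4, both in cluster 4; the other 17 lay in clusters 3 (4 genes), 5 (2), 6 (2), 7 (3) and 9 (6). Clusters 4 and 8 also held 21 of the 33 genes silent in both lines.

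Promoters show how the genes of 1 cluster are related. RefSeq promoters (GRCh38.p14, 250 bases before to 50 after the first listed start) were matched for 214 of the 261 genes. Words of 12 bases were compared between all 22791 pairs of these promoters, and 91.6% of the pairs shared none. Of the 455 pairs sharing 10 words or more, 444 lay within 1 cluster and 298 of these within cluster 4. ZNF43 shared 10 or more words with 23 other promoters, all in cluster 4; among these 23 genes, 8 were on in both lines, 4 silent in Kasumi-1, 1 silent in NB4, 4 silent in both and 6 between. Related upstream sequence thus stood before genes of every class. The 250 bases before the start are shown for 4 of them, 1 of each class but the last, with capitals marking stretches of at least 12 bases shared with ZNF43 (in ZNF43 itself, with any of the other three):
ZNF43 (chr19:21836183-21836432, minus strand): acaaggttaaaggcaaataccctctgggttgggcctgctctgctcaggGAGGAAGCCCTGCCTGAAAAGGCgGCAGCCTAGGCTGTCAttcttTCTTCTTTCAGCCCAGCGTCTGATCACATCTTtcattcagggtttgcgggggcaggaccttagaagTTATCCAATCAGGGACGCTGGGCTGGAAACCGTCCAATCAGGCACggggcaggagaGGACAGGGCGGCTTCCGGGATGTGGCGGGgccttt
ZNF93 (chr19:19900696-19900945, plus strand): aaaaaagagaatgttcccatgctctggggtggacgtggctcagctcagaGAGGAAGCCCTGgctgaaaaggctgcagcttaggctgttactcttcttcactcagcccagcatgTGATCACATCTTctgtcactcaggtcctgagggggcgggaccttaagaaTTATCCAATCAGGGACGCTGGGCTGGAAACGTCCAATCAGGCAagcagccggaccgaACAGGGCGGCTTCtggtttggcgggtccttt
ZNF85 (chr19:20923001-20923250, plus strand): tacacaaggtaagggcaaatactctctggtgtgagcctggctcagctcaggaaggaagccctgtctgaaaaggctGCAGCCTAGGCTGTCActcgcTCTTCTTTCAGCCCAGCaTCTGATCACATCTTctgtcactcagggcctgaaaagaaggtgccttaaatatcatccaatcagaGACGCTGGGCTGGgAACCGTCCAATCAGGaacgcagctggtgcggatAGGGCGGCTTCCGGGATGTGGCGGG
ZNF91 (chr19:23395472-23395721, minus strand): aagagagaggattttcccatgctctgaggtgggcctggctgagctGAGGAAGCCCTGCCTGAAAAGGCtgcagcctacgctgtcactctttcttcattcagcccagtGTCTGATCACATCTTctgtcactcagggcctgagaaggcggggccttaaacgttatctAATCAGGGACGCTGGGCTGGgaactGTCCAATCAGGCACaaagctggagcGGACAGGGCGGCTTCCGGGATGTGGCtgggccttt

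ZNF43 was silent in Kasumi-1, ZNF93 in NB4 and ZNF85 in both lines, and ZNF91 was on in both. The shared stretches covered 80 of 250 bases in ZNF93, 100 in ZNF85 and 98 in ZNF91. ZNF91 and ZNF93 are known as repressors of SVA and LINE retrotransposons.

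The next promoters stand outside this family and are shown for their CpG content, since CpG-rich promoters of zinc finger genes are known targets of DNA methylation in cancer. ZNF614 was silent in Kasumi-1, ZNF606 silent in NB4, and ZNF146 had the highest mean level of all 261 genes. Capitals mark CG dinucleotides, of which the 250 bases hold 17 in ZNF614, 27 in ZNF606 and 17 in ZNF146:
ZNF614 (chr19:52028380-52028629, minus strand): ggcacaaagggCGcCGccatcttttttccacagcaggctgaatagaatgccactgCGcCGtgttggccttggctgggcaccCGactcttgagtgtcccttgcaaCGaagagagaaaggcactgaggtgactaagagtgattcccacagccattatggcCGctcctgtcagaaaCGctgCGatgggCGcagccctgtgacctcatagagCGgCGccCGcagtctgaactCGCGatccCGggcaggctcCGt
ZNF606 (chr19:58002821-58003070, minus strand): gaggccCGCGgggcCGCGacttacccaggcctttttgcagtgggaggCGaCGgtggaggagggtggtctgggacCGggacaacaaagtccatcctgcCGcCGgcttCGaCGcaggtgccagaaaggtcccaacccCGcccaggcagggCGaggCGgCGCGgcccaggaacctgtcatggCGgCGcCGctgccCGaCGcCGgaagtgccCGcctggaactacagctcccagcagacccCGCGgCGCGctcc
ZNF146 (chr19:36214856-36215105, plus strand): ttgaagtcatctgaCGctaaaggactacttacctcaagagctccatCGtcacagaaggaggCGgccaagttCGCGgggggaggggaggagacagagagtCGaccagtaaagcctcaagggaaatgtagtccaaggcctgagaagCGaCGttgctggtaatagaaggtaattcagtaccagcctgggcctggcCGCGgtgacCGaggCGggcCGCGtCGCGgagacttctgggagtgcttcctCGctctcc

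Over the 300-base windows the 214 promoters had a median of 20 CG dinucleotides against 14 over 27305 promoters of all genes. Their ratio of observed to expected CG reached 0.6 in 78.5% of the 214 and 49.0% of all promoters. By class the median was 22 for genes on in both lines (112 promoters), 19 for genes silent in NB4 (16), 17 for genes silent in Kasumi-1 (13), 21 for genes silent in both (21) and 19 for the rest (52). The ranges of the classes overlapped widely, from 8 to 34 in genes silent in NB4, 9 to 27 in genes silent in Kasumi-1, and 6 to 40 in genes on in both. Methylation was not measured in this series.

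**Figure D2:**
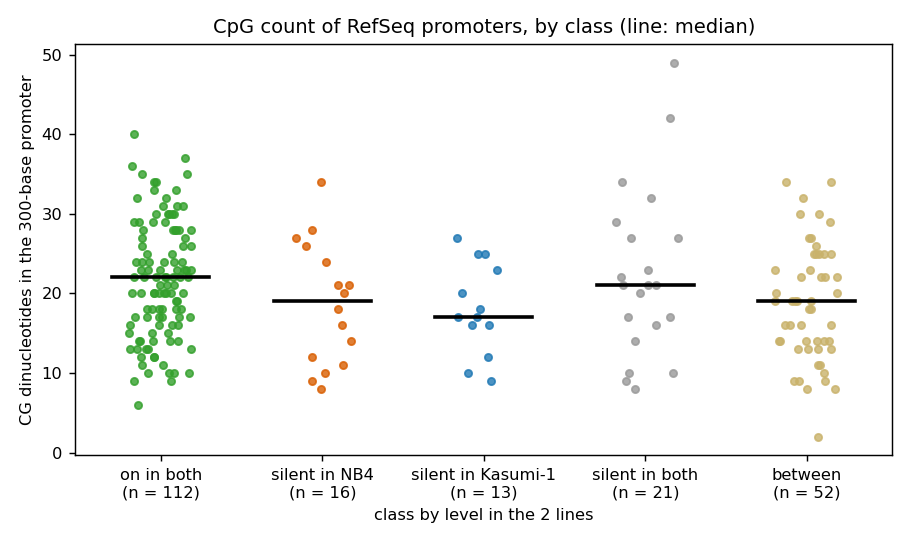
CG dinucleotides in the 300-base RefSeq promoter of 214 genes (points), by class of level in the 2 lines, with the class median as a bar. The medians run from 17 (silent in Kasumi-1) to 22 (on in both) and the classes overlap.

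A set of 5 sequence motifs was searched on both strands of the 300-base windows. The letters CCGGAAGT, bound by ETS factors, stood in 45 of the 214 promoters (21.0%), against 4.44% of all promoters, 8.37% of all promoters with an observed to expected CG ratio of at least 0.6 and 14.3% of promoters of zinc finger genes elsewhere. They stood in 28 of 112 genes on in both lines, 6 of 16 silent in NB4, 1 of 13 silent in Kasumi-1 and 3 of 21 silent in both; the ZNF606 promoter above is 1 of the 6. AAGATGGC, read by YY1, stood in 6.54% of the 214 promoters and 3.03% of all. Its share was 4.88% of all promoters with a CG ratio of at least 0.6 and 2.86% for zinc finger genes elsewhere. It stood in 7 of 112 genes on in both lines and 1 of 16 silent in NB4. Among genes silent in Kasumi-1 it stood in 3 of 13, and in 1 of 21 silent in both. GCATGCGC, the core read by NRF1, stood in 4.21% of the 214 and 3.27% of all. Its share was 6.02% of promoters with a CG ratio of at least 0.6 and 7.14% for zinc finger genes elsewhere. TCGCGAGA, a palindrome core found in many CpG-rich promoters, stood in 1.40%, 1.19%, 2.37% and 0.952% of the same sets in that order. GGCCAATC, a form of the CCAAT box, stood in 0.467%, 2.35%, 3.70% and 2.86%. The ZNF43, ZNF93, ZNF85 and ZNF91 promoters above hold CCAATC after other letters, a form not counted here. None of the 5 motifs contains another. A match describes the letters only.

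Among genes silent in Kasumi-1, ZNF738 in cluster 4 had the highest level in NB4. It was listed at 21.6, 12.6, 18.1 and 20.4 TPM in NB4, against 0 in all 4 Kasumi-1 libraries. ZNF614 in cluster 8 was at 15.2, 13.2, 12.2 and 10.8 TPM in NB4, against 0 throughout Kasumi-1. The pseudogene ZNF826P (9.96, 10.7, 12.0 and 7.48 TPM) and ZNF726 (11.9, 10.0, 8.86 and 8.25 TPM) had the same pattern, each at 0 in Kasumi-1. The rule that picked these genes leaves no overlap in level between the lines.

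ZNF765 in cluster 8 was at 9.76, 12.0, 11.6 and 7.62 TPM in NB4, against at most 0.0202 TPM in Kasumi-1. ZNF43, whose promoter is shown above, was at 6.64, 7.04, 5.22 and 5.76 TPM in NB4, against 0 in Kasumi-1. ZNF493 next to ZNF738 was at 6.76, 4.39, 6.31 and 6.08 TPM against 0. ZNF350, a repressor known as a partner of BRCA1, was at 4.59, 3.57, 2.54 and 3.56 TPM in NB4, against 0 in Kasumi-1. The other genes silent in Kasumi-1 were ZNF585A, ZNF681, ZNF492 and ZNF98 and, in cluster 8, ZNF613, ZNF432, ZNF600, ZNF28, ZNF320 and ZNF813. Over the 18 genes the mean level in NB4 ran from 1.65 to 18.2 TPM with a median of 3.39 TPM, and 17 were tested, ZNF98 lying under the filter.

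Among genes silent in NB4, ZNF439 in cluster 3 stood highest. It was listed at 0.0299, 0.0952, 0 and 0.0693 TPM in NB4, against 7.47, 8.21, 14.3 and 17.5 TPM in Kasumi-1. ZNF671 in cluster 9, known for promoter methylation in several tumours, was at 0, 0, 0.00304 and 0.0313 TPM in NB4, against 10.7, 6.00, 7.24 and 8.86 TPM in Kasumi-1. ZNF792 in cluster 5 was listed at 0 in NB4 and at 9.37, 2.98, 4.09 and 7.34 TPM in Kasumi-1. For all 3 genes every Kasumi-1 library lay above every NB4 library, which the rule requires.

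ZNF606 was listed at 0 in NB4 and at 7.69, 4.54, 5.48 and 6.74 TPM in Kasumi-1. ZNF93 was at 0, 0, 0.0834 and 0 TPM in NB4, against 5.29, 3.75, 5.64 and 6.06 TPM in Kasumi-1. Its neighbour ZNF253, the other gene of cluster 4 with this pattern, was at most 0.0446 TPM in NB4, against 6.69, 2.83, 3.26 and 6.43 TPM in Kasumi-1. The other genes silent in NB4 were ZNF491, ZNF69 and ZNF709 in cluster 3, ZNF599 in cluster 5, ZNF571 and ZNF573 in cluster 6, and ZNF155, ZNF222 and ZNF284 in cluster 7, with ZNF470, ZNF772, ZNF256 and ZNF329 in cluster 9. Over the 19 genes the mean level in Kasumi-1 ran from 1.42 to 11.9 TPM with a median of 3.48 TPM, and ZNF491 alone was not tested.

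**Figure D3:**
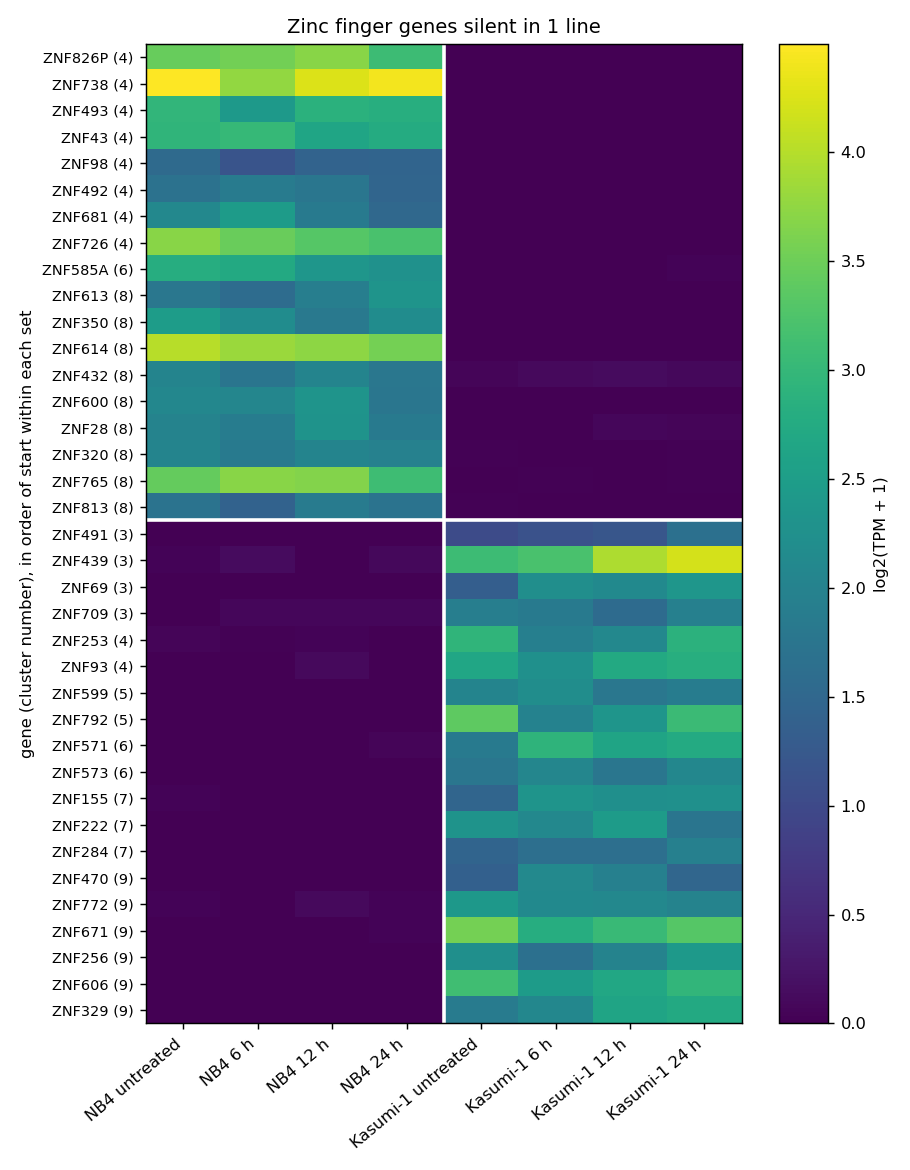
Levels of the 37 genes silent in 1 line as log2(TPM + 1) in each of the 8 libraries (columns), with the cluster number after each gene name; the white lines part the 2 lines and the 2 sets. By the rule that picked the genes, each set is dark in all 4 libraries of 1 line and lit in all 4 of the other.

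Near both bounds the classes were close. ZNF432, inside the bound, was listed at 0.0394, 0.0868, 0.0985 and 0.0631 TPM in Kasumi-1. ZNF426 and ZNF433, just outside, showed a like pattern: ZNF426 was at 5.69, 4.94, 4.45 and 3.81 TPM in NB4, against 0.109, 0.330, 0.0451 and 0.158 TPM in Kasumi-1, and ZNF433 was at 0.00213, 0.134, 0 and 0.322 TPM in NB4, against 8.69, 7.66, 7.68 and 6.32 TPM in Kasumi-1.

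Some silent genes stood next to each other. In Kasumi-1, 24 of the 41 genes of cluster 4 and 20 of the 43 of cluster 8 were silent. Whether the runs exceed what such shares would give was not tested. The longest run of neighbouring silent genes was in Kasumi-1, 13 genes of cluster 4 from ZNF43 to ZNF730 (21987752 to 23330021). Of these, 3 (ZNF43, ZNF98 and ZNF492) were on in NB4, 7 were silent in both lines, and the others lay between, such as ZNF257 at 0.125 to 0.700 TPM in NB4, against 0 in Kasumi-1. None of the 52 other genes listed in that stretch reached 1 TPM in any library.

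In cluster 8, ZNF613, ZNF350, ZNF615, ZNF614 and ZNF432 formed a run of 5 silent in Kasumi-1 (52430400 to 52598991); 4 of them were on in NB4 and ZNF615 was silent in both lines. ZNF649, centromeric to this run and known to bind LINE elements, was at 8.60, 6.13, 5.20 and 4.67 TPM in NB4, against 0.605, 1.30, 0.902 and 0.647 TPM in Kasumi-1, and ZNF577 beside it at 4.80, 4.65, 4.56 and 3.43 TPM against 0.367, 0.920, 0.641 and 0.229 TPM. ZNF616, farther towards the telomere, was on in both lines and higher in Kasumi-1, at 9.57, 6.66, 6.25 and 6.22 TPM in NB4, against 16.8, 10.7, 9.70 and 9.57 TPM in Kasumi-1. ZNF841, between ZNF432 and ZNF616 and overlapping ZNF432 on the same strand, was listed at 0 in NB4 and at most 0.132 TPM in Kasumi-1.

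In NB4 the longest run that held genes on in Kasumi-1 was in cluster 9, ZNF418, ZNF256, ZNF606, ZNF135 and ZNF329 (58433252 to 58666477). ZNF256, ZNF606 and ZNF329 were on in Kasumi-1, ZNF135 was silent in both lines and ZNF418 was at most 0.142 TPM. ZSCAN18, a related zinc finger gene that the naming rule leaves out, lies in the same stretch and was listed at 0 in NB4 and at 3.46, 4.89, 3.02 and 4.21 TPM in Kasumi-1. C19orf18 and the noncoding CTD-2368P22.1, which overlaps ZNF606 on the opposite strand, were also at 0 in NB4 and reached 1.50 and 3.14 TPM in Kasumi-1. These were the 3 of the 10 other genes there that reached 1 TPM in a library, and all 3 were at 0 in NB4. By the rule only ZSCAN18 was on in Kasumi-1. C19orf18 was at 0.320, 0.691, 0.312 and 1.50 TPM there and CTD-2368P22.1 at 1.24, 1.07, 0.473 and 3.14 TPM.

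A second NB4 run of 4 genes in cluster 6, ZNF793, ZNF540, ZNF571 and ZNF781 (37997841 to 38183223), held 1 gene on in Kasumi-1, ZNF571, which overlaps ZNF540 on the opposite strand. A run of 5 in cluster 8 (ZNF415, ZNF347, ZNF665, ZNF818P and ZNF677, 53611132 to 53758151) was silent in both lines.

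Summed over a cluster, the lines differed in opposite directions along the chromosome. NB4 was higher in clusters 2, 4 and 8, with no overlap between its 4 libraries and those of Kasumi-1. The sums were 417 to 472 TPM in NB4, against 237 to 283 TPM in Kasumi-1 for cluster 2, 180 to 221 against 113 to 170 TPM for cluster 4, and 142 to 171 against 92.6 to 118 TPM for cluster 8. Kasumi-1 was higher, without overlap, in clusters 1 (3.11 times the NB4 mean), 3 (2.03), 6 (2.02), 7 (1.74) and 9 (1.55). In cluster 5 the sums overlapped, at 13.9 to 29.7 TPM in NB4, against 25.2 to 46.4 TPM in Kasumi-1.

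The ratio between the lines moved in clusters 4 and 8, and hardly in cluster 2, when genes not on in both lines were left out. The Kasumi-1 mean was 0.595, 0.676 and 0.681 times the NB4 mean in clusters 2, 4 and 8. Over genes on in both lines only, these ratios were 0.602 (12 genes), 0.854 (12 genes) and 1.04 (12 genes). In clusters 3, 6, 7 and 9 the same restriction left ratios of 1.60 (13 genes), 1.81 (9 genes), 1.60 (11 genes) and 1.45 (41 genes).

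**Figure D4:**
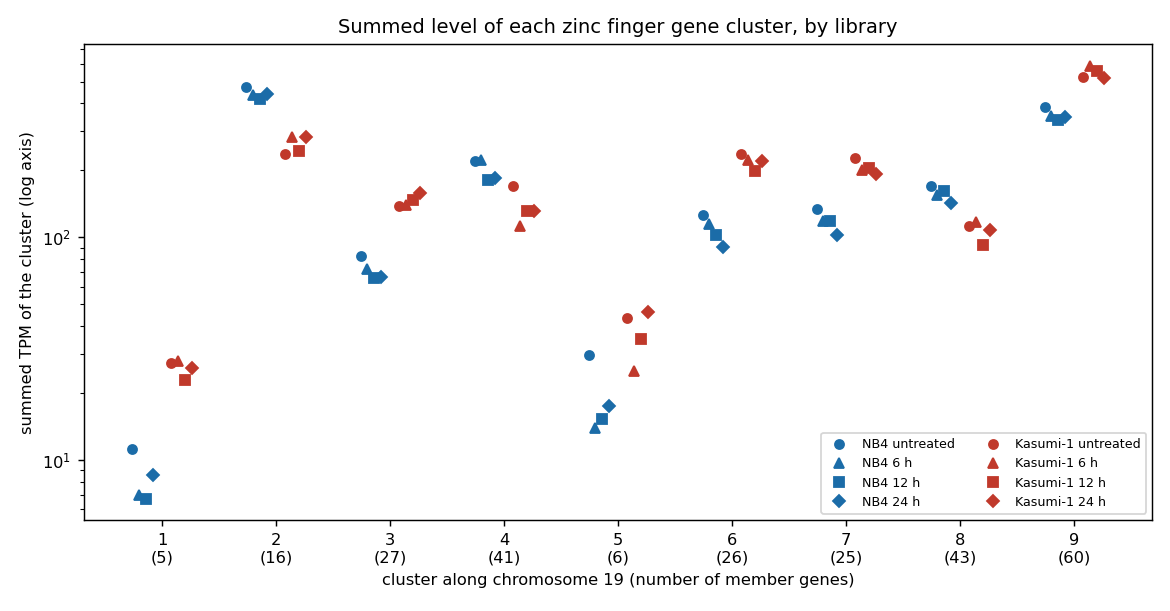
Summed TPM of each of the 9 clusters (log axis) in the 4 NB4 libraries (blue) and 4 Kasumi-1 libraries (red), with symbols for untreated, 6, 12 and 24 h. NB4 lies above in clusters 2, 4 and 8, Kasumi-1 above in clusters 1, 3, 6, 7 and 9, and the lines overlap in cluster 5.

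The line difference was tested with limma on log2(TPM + 1), with the times as a factor, over all 14650 genes. Of the 188 genes tested, 39 were higher in NB4 (20.7%; 27.5% of all genes tested) and 81 higher in Kasumi-1 (43.1%; 27.8% of all), at a Benjamini-Hochberg adjusted p under 0.05. The median difference was -0.39 (NB4 minus Kasumi-1) against 0.0025 over all genes, -0.12 over the 217 zinc finger genes tested on other chromosomes (40 higher in NB4 and 75 higher in Kasumi-1) and -0.14 over 873 other genes of chromosome 19 (205 and 292). In 37 genes every NB4 library lay above every Kasumi-1 library (22.8% of all genes tested did) and in 78 the reverse held (24.5% of all). The 4 times of a line stand in as its repeats, so the test measures the difference against the spread over times, not over cultures.

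The calls were also counted by cluster, from the same values as the sums. In clusters 2, 4 and 8, 9, 10 and 14 genes were higher in NB4 and 1, 5 and 2 higher in Kasumi-1. In clusters 1, 3, 5, 6, 7 and 9, 0, 1, 0, 2, 0 and 1 were higher in NB4 and 4, 12, 2, 17, 8 and 26 higher in Kasumi-1, and the 12 genes outside clusters gave 2 and 4. Of the 14 in cluster 8, 9 were genes silent in Kasumi-1, which entered the test through NB4, and 2 were on in both lines. Of the 10 in cluster 4, 7 were silent in Kasumi-1 and 3 on in both lines. Genes silent in NB4 likewise made up 3, 2, 2, 2, 3 and 6 of the calls higher in Kasumi-1 in clusters 3, 4, 5, 6, 7 and 9. Over the 121 genes on in both lines, 14 were higher in NB4 and 43 higher in Kasumi-1, with a median difference of -0.34. Of all genes tested, on in both lines or not, 27.5% were higher in NB4 and 27.8% in Kasumi-1. The shares over all genes on in both lines were not computed, so these counts have no matched background.

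The genes with the highest levels were on in both lines. ZNF146, which consists of fingers without a KRAB domain, was at 80.0, 74.1, 65.5 and 53.5 TPM in NB4, against 138, 116, 104 and 119 TPM in Kasumi-1 (log2 difference -0.81, SE 0.12, limma adjusted p = 0.00155). ZNF428 in cluster 7 was at 57.0, 51.6, 53.1 and 38.4 TPM against 134, 105, 109 and 89.0 TPM. All Kasumi-1 libraries lay above all NB4 libraries for both.

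Of the 10 genes with the highest mean level, 6 stood in cluster 2, all called higher in NB4, and for ZNF317, ZNF561, ZNF414 and ZNF558 the call held in every alternative run. ZNF558 was at 53.4, 49.1, 54.1 and 56.0 TPM in NB4, against 14.3, 21.1, 14.7 and 13.8 TPM in Kasumi-1 (log2 difference 1.69, SE 0.16, limma adjusted p = 0.000166). ZNF317 was at 76.1, 66.4, 63.5 and 64.1 TPM against 26.6, 25.4, 22.3 and 28.9 TPM, ZNF414 at 66.7, 56.1, 45.2 and 46.7 TPM against 19.3, 28.0, 19.1 and 17.6 TPM, and ZNF561 at 61.1, 59.8, 58.6 and 53.8 TPM against 27.9, 22.7, 27.9 and 33.7 TPM. The lines did not overlap for any of these 4 genes.

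Not every abundant gene parted the lines. ZNF787 was at 55.3, 53.6, 45.7 and 43.1 TPM in NB4, against 53.0, 63.1, 58.2 and 45.9 TPM in Kasumi-1 (limma adjusted p = 0.314). ZNF266 of cluster 2 was at 63.3, 70.2, 58.4 and 79.6 TPM against 38.3, 59.3, 46.1 and 67.9 TPM; its adjusted p of 0.0392 was lost without any 1 of the 8 libraries (0.0603 to 0.105). ZNF121, also of cluster 2, was at 69.4, 58.1, 60.9 and 76.7 TPM against 48.2, 50.9, 38.2 and 48.4 TPM (adjusted p = 0.0127, and 0.0644 without the NB4 library at 12 h or 0.0638 without the Kasumi-1 library at 12 h, limma).

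Genes with a known role were read in the same fit. ZNF91, the SVA repressor, was at 8.45, 9.36, 3.43 and 7.22 TPM in NB4, against 2.21, 2.73, 4.18 and 2.58 TPM in Kasumi-1, so that the lines overlapped at 12 h. Its log2 difference of 1.0 (SE 0.31, limma adjusted p = 0.0316) was not called without the untreated, 6 h or 24 h library of either line (adjusted p from 0.0958 to 0.107). ZNF274, which is known to bind the 3′ ends of zinc finger genes and bring SETDB1 there, was higher in Kasumi-1, at 26.8, 46.5, 30.2 and 29.8 TPM against 19.97, 19.1, 17.6 and 21.1 TPM (log2 difference -0.72, SE 0.17, limma adjusted p = 0.0102). ZNF382, known as methylated in tumours, was at 0.510, 0.215, 0.379 and 0.673 TPM in NB4, against 5.12, 3.03, 2.95 and 3.21 TPM in Kasumi-1, without overlap.

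ZNF587, known with ZNF417 to bind HERV-K, was at 8.24, 11.1, 7.52 and 6.38 TPM in NB4, against 16.3, 19.4, 13.1 and 18.6 TPM in Kasumi-1 (limma adjusted p = 0.00305), while its near copy ZNF417 was at 3.49, 4.10, 4.76 and 5.02 TPM and 6.17, 5.74, 6.17 and 3.97 TPM (adjusted p = 0.276); how reads were divided between the 2 copies is uncertain. ZNF331, an imprinted gene, was at 3.05, 3.58, 4.99 and 5.22 TPM in NB4, against 2.21, 1.74, 1.39 and 1.44 TPM in Kasumi-1 (limma adjusted p = 0.0115, and 0.0557 or 0.0543 without the NB4 or Kasumi-1 library at 12 h). ZNF471 and ZNF85 were listed at 0 in all 8 libraries. ZNF154 was under 0.1 TPM in NB4, against at most 0.238 TPM in Kasumi-1. ZNF582 did not pass (adjusted p = 0.328), at 0.789 to 1.92 TPM in NB4, against 1.69 to 2.27 TPM in Kasumi-1.

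Another 3 genes with large differences lay between the classes. ZNF114, outside the clusters, was at 13.6, 16.1, 4.57 and 4.01 TPM in NB4, against 1.38, 0.497, 0.301 and 0.271 TPM in Kasumi-1, and it overlaps CARD8, listed at 57.4 to 148 TPM, on the opposite strand. ZNF737 in cluster 4 was at most 0.258 TPM in NB4, against 5.80, 3.04, 5.66 and 5.89 TPM in Kasumi-1. ZNF790 in cluster 6 was at 0.887, 0.636, 0.118 and 0.238 TPM in NB4, against 7.12, 6.59, 6.34 and 5.49 TPM in Kasumi-1.

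None of the 188 genes passed the test of the response that both lines shared. For the average of 6, 12 and 24 h less the untreated level, over both lines (limma, adjusted p under 0.05), 0 of the 188 genes were higher (0.0273% of all genes tested, 4 genes) and 0 lower (0% of all). At an unadjusted p under 0.05, 3 were higher (9.30% of all) and 16 lower (11.1% of all), and the median change was -0.07. These rested on the untreated libraries: without untreated NB4 they were 10, 10 and -0.01, and without untreated Kasumi-1 they were 1, 6 and -0.12. Without any 1 of the 6 treated libraries, 1 to 3 were higher and 7 to 15 lower. Changes below are log2(TPM + 1) against the untreated library of the same line, which all 3 times of a line share.

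In NB4 the median change of the 188 genes was -0.10, -0.12 and -0.10 at 6, 12 and 24 h, and 80 genes were lower at all 3 times (42.6%; 32.2% of all genes tested) against 21 higher at all 3 (11.2%; 30.6% of all). In Kasumi-1 the medians were 0.00, -0.01 and 0.00, with 56 lower at all 3 times (29.8%; 36.0% of all) and 47 higher (25.0%; 28.2% of all). All genes tested had medians between -0.08 and 0.01 in the 6 treated libraries. Among the 159 genes averaging 1 TPM or more in NB4 the medians there were -0.13, -0.18 and -0.18, and among the 172 such genes in Kasumi-1 they were -0.06, -0.04 and 0.00. The 217 zinc finger genes tested on other chromosomes also had negative medians, -0.04, -0.07 and -0.07 in NB4. In Kasumi-1 theirs were -0.09, -0.09 and -0.05.

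No silent gene was switched on by the rule. Of the 77 genes under 0.1 TPM in untreated NB4, 0 reached 1 TPM at a later time (0.549% of all genes did). Of 65 in untreated Kasumi-1, 0 did (0.693% of all). Zinc finger genes elsewhere gave 0 of 74 and 0 of 62. At shares this low, 0 in sets of this size is no result particular to these genes. Of the 161 genes at 1 TPM or more in untreated NB4, 1 was under 0.1 TPM at a later time (0.809% of all), as was 1 of 172 in Kasumi-1 (0.607% of all). Both were ZNF497, listed at 4.48, 0, 2.78 and 3.0 TPM in NB4, against 2.99, 2.26, 3.77 and 0 TPM in Kasumi-1; it returned above 1 TPM at the next time in NB4.

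At 2-fold or more at all 3 times, without a test, NB4 had 1 gene higher, ZNF628 (2.03% of all genes tested passed), and 0 lower (0.703%). Kasumi-1 had 2 higher, ZNF547 and ZNF627 (1.88%), and 1 lower, ZNF551 (0.655%). ZNF628 was at 1.11, 4.18, 6.01 and 3.28 TPM in NB4, against 5.51, 7.77, 6.16 and 1.68 TPM in Kasumi-1. ZNF547 was at 1.29, 1.14, 2.14 and 1.96 TPM in NB4, against 1.26, 3.92, 4.09 and 4.66 TPM in Kasumi-1. ZNF551 was at 1.80, 1.03, 0.182 and 1.59 TPM and 6.52, 2.12, 2.36 and 1.80 TPM. Each of these 4 genes rests on 1 untreated library per line.

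The genes whose 6 treated libraries all lay below untreated with the lowest p did not pass over all genes. ZNF586 in cluster 9 was at 9.30, 5.81, 5.41 and 6.30 TPM in NB4, against 14.7, 6.77, 6.89 and 7.64 TPM in Kasumi-1 (change -0.77, SE 0.18, limma adjusted p = 0.108, 0.0596 to 0.319 over the alternatives). ZNF616 gave -0.61 (SE 0.16, limma adjusted p = 0.129) with the values given above. ZNF708 in cluster 4 was at 13.1, 10.7, 8.84 and 7.78 TPM in NB4, against 11.3, 7.41, 6.72 and 6.23 TPM in Kasumi-1 (change -0.58, limma adjusted p = 0.142). Within each line the untreated library was the highest for all 3.

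ZNF724P, ZNF507, ZNF552 and ZNF428 likewise had all 6 treated libraries below untreated, with changes of -0.64, -0.49, -0.54 and -0.34. In the other direction, ZNF419 (1.87, 5.21, 2.32 and 2.71 TPM; 2.69, 5.25, 3.11 and 5.01 TPM), ZNF224, known as a partner of WT1 (5.40, 6.63, 9.53 and 9.96 TPM; 7.29, 7.65, 8.53 and 17.2 TPM), and ZNF580 (18.7, 20.7, 22.7 and 25.0 TPM; 21.9, 47.9, 53.5 and 27.8 TPM) had every treated library above untreated. Their changes were 0.55, 0.52 and 0.58 (limma adjusted p = 0.210, 0.234 and 0.261).

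The response differed between the lines for none of the 188 genes in the test of that difference (limma, line by treatment, adjusted p under 0.05): 0 changed more upward in NB4 (0.0887% of all genes tested) and 0 in Kasumi-1 (0.0410% of all). At an unadjusted p under 0.05 these counts were 3 (6.37% of all) and 7 (4.22% of all), and the median difference was -0.12 against 0.06 over all genes. In 12 genes every treated library lay below untreated in NB4 and above it in Kasumi-1 (4.92% of all genes tested), and in 7 the reverse held (6.70% of all). ZNF627 in cluster 3, 1 of the 12, came closest. It was at 16.0, 10.2, 8.46 and 7.84 TPM in NB4, against 7.45, 21.3, 17.7 and 21.0 TPM in Kasumi-1, a difference in change of -2.10 (SE 0.32, limma adjusted p = 0.0880, and 0.0295 to 0.308 over the alternatives). Every treated library lay below untreated in NB4 and above it in Kasumi-1, and ACP5, which overlaps it on the opposite strand, was at most 0.0444 TPM.

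**Figure D5:**
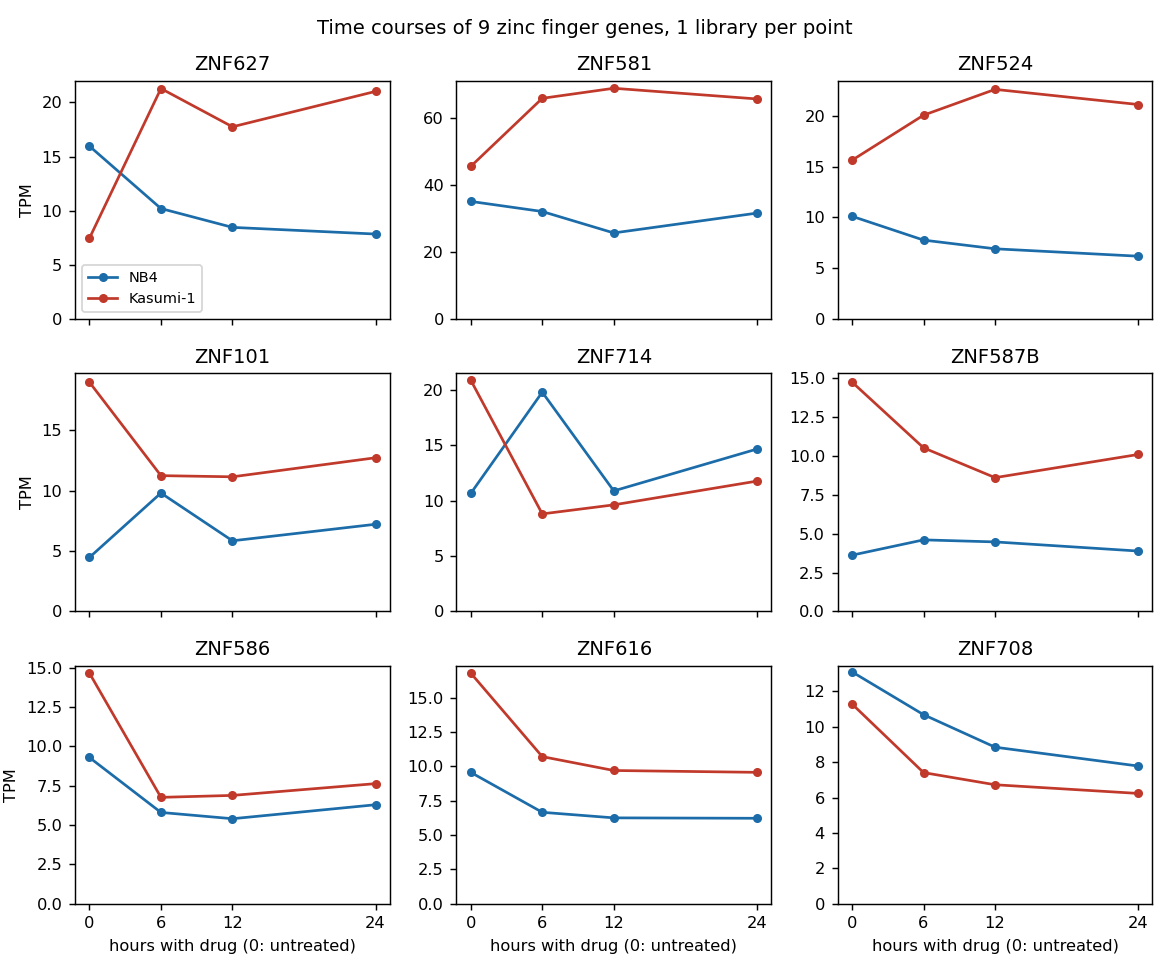
TPM of 9 genes against hours with the drug (0 is untreated) in NB4 (blue) and Kasumi-1 (red), 1 library per point. ZNF627, ZNF581 and ZNF524 have every treated library above untreated in Kasumi-1 and below it in NB4, and ZNF101, ZNF714 and ZNF587B the reverse. ZNF586, ZNF616 and ZNF708 have every treated library below untreated in both lines. None passed the test over all genes.

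Among genes of the corepressor pathway through which KRAB proteins act, 28 were listed and 27 tested. In the line difference 9 were higher in NB4 (27.5% of all genes tested) and 5 in Kasumi-1 (27.8% of all). TRIM28, the direct partner of the KRAB domain, was at 490, 488, 438 and 447 TPM in NB4, against 463, 465, 447 and 376 TPM in Kasumi-1 (limma adjusted p = 0.485). SETDB1 was higher in Kasumi-1, at 65.3, 60.4, 52.8 and 61.7 TPM against 57.2, 43.4, 44.3 and 38.4 TPM in NB4 (limma adjusted p = 0.0335). Its levels overlapped between the lines, with untreated NB4 above Kasumi-1 at 12 h. The other genes higher in Kasumi-1 were HDAC1, DNMT3A, EHMT1 and FAM208A.

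Higher in NB4 were the DNA methyltransferases DNMT1 (log2 difference 1.22, SE 0.13) and DNMT3B (1.85, SE 0.25), the heterochromatin proteins CBX3 (1.08) and CBX5 (1.09), and CHD3, DAXX, HELLS, MPHOSPH8 and PPHLN1. In the shared response 0 of the 27 passed in either direction (limma), with a median change of -0.17 over the list. Unadjusted p was under 0.05 for 1 higher gene (MORC3, 9.30% of all genes tested) and 6 lower (11.1% of all). The 6 were ATF7IP, PPHLN1, SUV39H2, DNMT1, UHRF1 and HELLS. HELLS and UHRF1 fell more in Kasumi-1. HELLS was at 41.1, 36.3, 39.3 and 41.6 TPM in NB4, against 43.1, 15.9, 18.9 and 21.7 TPM in Kasumi-1. UHRF1 was at 89.5, 76.3, 74.8 and 85.5 TPM against 157, 67.4, 49.1 and 45.7 TPM. In the response difference 0 of the 27 passed, with a median of 0.31 (NB4 minus Kasumi-1). Its unadjusted p was under 0.05 for 6 genes changing more upward in NB4 (6.37% of all) and 0 in Kasumi-1 (4.22% of all).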

How the data were processed

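The 8 libraries (2 lines, 4 conditions, 1 library each) were assigned to conditions from their titles. The submitters' processing notes name hg19, HISAT2 (an aligner) and StringTie (a transcript quantifier). Their versions and options, and which annotation was used, were not given in the sources used here. The deposited TPM and FPKM values are length- and depth-scaled abundances and the deposited coverage is mean read depth, a signal used only for depth, per the file headers. TPM was summed by gene name. Tests used limma 3.58.1 (R 4.3.3) on log2(TPM + 1) over the 14650 genes averaging 1 TPM or more, eBayes with trend, two-sided, Benjamini-Hochberg adjusted over all of them. The values are not counts, so no count test was run. A difference on this scale understates the change of low genes. Line difference and shared response came from line plus time (3 residual degrees of freedom), the response difference from line by treatment (4). The fits were tested on simulated data. Tables were read with Python 3.11.15 and pandas 2.3.3. The genes, gene lists and tests were chosen with earlier results of these data known. Named genes were up to 10 each way by size of line difference, the lowest p each way for the responses where none passed, the largest within a line, every gene silent in 1 line, the 10 highest by level and a list of studied genes (ZNF91, ZNF274, ZNF331 and others); the examples of runs, of genes near the bounds and of overlapping genes, and the comparison of promoter words, were chosen after their values were seen. Alternatives were another pseudocount, other filters, FPKM, TPM rescaled without mitochondrial and the 10 most abundant genes, times as repeats, other bounds and gaps, and each library left out. Some marker genes of the list are not reported here.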

Additional observations from a re-analysis of the deposited data

Results flagged for a closer look

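In 19 of the 188 genes every treated library of 1 line lay on one side of its untreated library and every treated library of the other line on the other side. The difference between the lines was tested with limma and passed over all genes for none of them. For 12 of them the treated NB4 libraries were below untreated and the treated Kasumi-1 libraries above (4.92% of all genes tested). These were ZNF627 (difference in change -2.10 on the log2(TPM + 1) scale, NB4 minus Kasumi-1), ZNF296 (-1.07), ZNF524 (-0.91), ZNF649 (-0.87), ZNF155 (-0.85), ZNF581 (-0.78), ZNF333 (-0.73), ZNF550 (-0.72), ZNF554 (-0.62), ZNF177 (-0.53), ZNF805 (-0.45) and ZNF432 (-0.24). ZNF155 is silent in NB4 and ZNF432 in Kasumi-1, so their directions in that line rest on levels under 0.1 TPM. ZNF296, picked out once its values were known, was at 11.8, 10.1, 8.83 and 5.84 TPM in NB4, against 9.06, 21.2, 11.7 and 10.9 TPM in Kasumi-1. ZNF524 was at 10.1, 7.76, 6.91 and 6.18 TPM in NB4, against 15.6, 20.1, 22.6 and 21.1 TPM in Kasumi-1. ZNF581, which overlaps ZNF580 and CCDC106 on its own strand, was at 35.1, 32.1, 25.7 and 31.6 TPM in NB4, against 45.5, 65.8, 68.8 and 65.6 TPM in Kasumi-1.

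For the other 7 the treated NB4 libraries were above untreated and the treated Kasumi-1 libraries below (6.70% of all genes tested). With such shares over all genes, these patterns are no result particular to the zinc finger genes. These were ZNF714 (1.42), ZNF101 (1.29), ZNF331 (0.80), ZNF587B (0.76), ZNF175 (0.58), ZNF417 (0.53) and ZNF780A (0.47). ZNF101, the first gene of cluster 4, was at 4.47, 9.80, 5.84 and 7.21 TPM in NB4, against 18.97, 11.2, 11.1 and 12.7 TPM in Kasumi-1. ZNF714 was at 10.7, 19.8, 10.9 and 14.7 TPM in NB4, against 20.9, 8.81, 9.62 and 11.8 TPM in Kasumi-1. ZNF587B was at 3.61, 4.60, 4.47 and 3.88 TPM in NB4, against 14.7, 10.5, 8.60 and 10.1 TPM in Kasumi-1. All 6 comparisons of a gene share 1 untreated library per line.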

How the results depend on the processing

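No paired analysis was possible because the labels give no replicate numbers. The line difference did match the libraries of a time through its time term. The counts of genes called higher in NB4 and in Kasumi-1 (39 and 81) became 17 and 36 with a minimum mean of 5 TPM, which left 91 genes tested, 36 and 90 after TPM was rescaled, and 38 and 79 with the times as repeats and no time term. Leaving out 1 library gave 33 to 34 and 67 to 78; for the line difference, either library of a time gives the same estimates, because the time term takes up the other. The shared response stayed at 0 genes each way in every alternative, and the response difference at 0 except 1 gene (ZNF627) with no filter; both stayed at 0 with a library left out (the response difference could not be fitted without an untreated library). Genes silent in NB4 numbered 19, 11 with the same bounds on FPKM, 13 with the upper bound at 2 TPM, and 19 to 20 with a library left out; genes silent in Kasumi-1 numbered 18, then 12, 14, and 18 with any library left out. The 9 clusters became 10 with a gap of 0.5 Mb and 6 with 2 Mb. The NB4 median change, averaged over the 3 times, was -0.11. It was -0.15 with a pseudocount of 0.1, -0.0551 with no filter, -0.18 at 5 TPM, -0.0906 on FPKM and -0.16 over genes averaging 1 TPM or more in NB4. Left-out libraries gave -0.11 to -0.10. The Kasumi-1 median was -0.00201. It was -0.0442 at 5 TPM, 0.00877 on FPKM, 0.0267 after rescaling and -0.0311 over genes averaging 1 TPM or more in Kasumi-1; left-out libraries gave -0.0030 to 0. The causes of these shifts were not tested. For single named genes, 750 of the line differences recomputed kept direction and call and 23 lost the call (ZNF266, ZNF91, ZNF121 and ZNF331). Many of these genes were named for a large line difference or for being silent in 1 line. Their kept calls come from the same values and are no independent support. Depth limits what can be said of levels under 0.1 TPM.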
